A study of Homo sapiens with 5 samples.

Results

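DNA methylation after 5-aza-2'-deoxycytidine (5-aza-dc) was compared with that of the vehicle control in human iPSCs, window by window. The comparison rests on 2 of the 5 libraries of the series, chosen by their treatment labels, and covers all 288391 windows of 1000 bases measured in every library. The cells were the established human iPSC line 201B7, listed at the Riken BRC as HPS0063 and with WT as genotype. The paper's imaging assay used human iPSCs carrying a fluorescent methyl-CpG-binding reporter. Its methods for the sequencing used here do not say whether the cells carried it. One library came from cells given 10 nM 5-aza-dc and the other from cells given 0.1% DMSO, both for 48 h. The other libraries, from cells given 1 nM etoposide, 1 µM propyl gallate or 1 µM theophylline, are used only as a view of how far single libraries scatter. Each condition had 1 library of 1 line, grown without feeder cells on laminin-511 E8 in mTeSR1 medium, so no difference can be set against a spread between replicates and a library difference cannot be told apart from a drug effect.

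5-aza-dc is a cytidine analogue that is taken up by nucleoside transporters, phosphorylated and built into DNA during replication. There it traps DNA methyltransferases, chiefly the maintenance enzyme DNMT1, so that newly made strands lose methyl groups as cells divide. In mammalian cells most CpG sites are methylated, while CpG islands at gene starts are mostly free of it, with the starts of germline genes and 1 allele of imprinted control regions as known exceptions. Reduced representation bisulfite sequencing (RRBS) digests genomic DNA to enrich CpG-rich fragments and converts unmethylated cytosines, and the methylated share of all CpG calls in a window is its β-value, given here in percent.

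Promoters of 4 genes show the range of outcomes described below. That of RAPGEF1, a guanine nucleotide exchange factor for RAP1, lies in the start window with the largest difference after 5-aza-dc among those named below (chr9:131740027-131740326, minus strand, 48 CpG). That of ZFP42, a zinc finger gene used as a marker of pluripotent cells, also had a lower β-value (chr4:187995521-187995820, plus strand, 24 CpG), and that of TDRD9, a germline gene of the piRNA pathway, kept its methylation (chr14:103928206-103928505, plus strand, 41 CpG). That of HMGCLL1, a lyase that cleaves 3-hydroxy-3-methylglutaryl-CoA, had a higher β-value (chr6:55579143-55579442, minus strand, 20 CpG). The sequences are those of RefSeq on GRCh38.p14, from 250 bases before to 50 bases after the gene start, on the gene's own strand. Window positions are those of hg38, the same assembly, and capitals mark the CpG dinucleotides, the sites that carry methylation.
RAPGEF1: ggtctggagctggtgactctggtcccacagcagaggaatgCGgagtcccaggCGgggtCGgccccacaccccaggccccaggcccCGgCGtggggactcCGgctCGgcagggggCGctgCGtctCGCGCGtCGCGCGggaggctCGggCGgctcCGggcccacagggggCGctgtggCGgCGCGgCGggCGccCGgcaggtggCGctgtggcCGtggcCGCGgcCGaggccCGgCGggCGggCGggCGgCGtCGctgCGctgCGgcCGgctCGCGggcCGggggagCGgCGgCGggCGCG
ZFP42: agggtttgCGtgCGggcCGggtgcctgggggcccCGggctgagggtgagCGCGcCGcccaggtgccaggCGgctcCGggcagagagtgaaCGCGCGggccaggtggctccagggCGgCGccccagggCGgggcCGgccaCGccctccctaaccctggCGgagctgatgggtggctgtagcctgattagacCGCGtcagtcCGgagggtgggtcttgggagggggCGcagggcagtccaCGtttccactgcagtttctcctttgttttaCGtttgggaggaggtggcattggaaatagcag
TDRD9: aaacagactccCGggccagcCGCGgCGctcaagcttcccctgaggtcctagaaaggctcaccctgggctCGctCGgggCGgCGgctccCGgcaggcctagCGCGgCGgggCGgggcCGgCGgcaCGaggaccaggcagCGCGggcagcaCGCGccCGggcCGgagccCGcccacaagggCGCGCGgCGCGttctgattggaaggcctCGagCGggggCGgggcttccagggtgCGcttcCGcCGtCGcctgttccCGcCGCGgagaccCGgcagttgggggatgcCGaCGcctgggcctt
HMGCLL1: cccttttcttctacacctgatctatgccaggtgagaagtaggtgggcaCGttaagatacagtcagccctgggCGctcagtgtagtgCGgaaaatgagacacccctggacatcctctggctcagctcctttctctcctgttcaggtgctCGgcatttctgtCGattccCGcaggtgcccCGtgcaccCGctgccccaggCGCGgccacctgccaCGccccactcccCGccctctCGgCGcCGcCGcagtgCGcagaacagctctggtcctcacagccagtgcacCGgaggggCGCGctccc
Of the 11 start windows named below by rule, 3 hold a whole RefSeq promoter, and ZFP42 and TDRD9 were added after their values were seen, as were the other single start windows of the gene lists apart from DPPA3 and POU5F1. All 4 hold CCGG, the motif at which RRBS digestion commonly cuts, on both strands since it is its own complement, as do 63.1% of the 35116 RefSeq promoters.

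Methylation was lower after 5-aza-dc than in every other library, and most of it was kept. The mean β-value over all windows was 79.38% in the vehicle control, 79.89% with etoposide, 79.95% with propyl gallate, 80.36% with theophylline and 78.35% with 5-aza-dc. The difference between 5-aza-dc and the vehicle control was -1.03 percentage points (95% counting interval -1.04 to -1.02), so 98.7% of the methylation was kept. With all calls of a library pooled it was -2.84 points, more than in most level classes pooled by themselves, and against the mean of the other 3 chemicals it was -1.72. In windows whose share of the calls of a library differed by at most 20% between the 2 libraries it was -1.04 points. Windows whose share was over 25% higher in the 5-aza-dc library had a mean of 74.4% in the vehicle control, and those whose share was over 20% lower had 84.0%, so the calls of the 5-aza-dc library lay more in less methylated windows. The library totals were between 188844850 and 228919184 calls, with a median of 398 calls per window in the 5-aza-dc library and 499 in the vehicle control. Intervals cover counting error only, because each condition had 1 library. Calls of 1 read and of its PCR copies are not independent, so the intervals are too narrow even for that error. Among windows with 1 to 30 methylated calls, an even count was found in 61.4% of those of the 5-aza-dc library and in 60.8% of those of the vehicle control, so calls often came in pairs.

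The size of the difference depended on how methylated a window was. Windows were classed by the mean of the etoposide, propyl gallate and theophylline libraries, which take no part in the contrast. In the 4316 windows of 30 to 50%, the mean β-value went from 40.3% in the vehicle control to 37.3% after 5-aza-dc, a difference of -3.08 percentage points (-3.22 to -2.94). It was -2.44 points at 10 to 30% and -2.52 at 50 to 70%, against -1.28 at 70 to 90% and -0.896 in the 181862 windows of 90% and over. As a share of the methylation present, windows of 2 to 10% kept the least, 81.9%, going from 4.76% to 3.90%. The share was larger at each higher level, at 86.9% at 10 to 30%, 92.4% at 30 to 50%, 95.9% at 50 to 70%, 98.5% at 70 to 90% and 99.0% at 90% and over. Windows under 2% differed by -0.0664 points and kept 93.9%. The other 3 libraries, each classed by the other two, differed from the vehicle control by between -0.171 and 1.27 points in any class, and none had a value below -0.171.

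The 5-aza-dc library was also the one most often at the bottom. Among 233771 windows with at least 100 calls in every library, it was the lowest in 36.9%. The vehicle control was the lowest in 19.6%, and each other chemical in 11.8 to 16.3%. In windows of 10 to 30% its share was 48.2%, and in windows under 2% it was 21.5%, where etoposide had 23.6%. In the same 233771 windows, β-values at least 10 points under the vehicle control were found in 3.09% with 5-aza-dc and in 0.732 to 1.06% with the other chemicals. Values at least 10 points over it were found in 0.957% with 5-aza-dc and in 1.42 to 1.72% with the others. High methylation was lost in few windows. Of 145412 windows at 90% and over in the 3 other chemicals, 71.8% were at 90% or more after 5-aza-dc and 82.0% in the vehicle control, and 45 were under 70% after 5-aza-dc and 4 in the vehicle control.

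CpG islands and their surroundings were compared within levels of methylation, because islands are mostly unmethylated. At 10 to 70%, the difference was -3.15 points in islands (-3.22 to -3.08, 6102 windows), -2.97 in the flanking shores, -2.47 in the shelves beyond them and -2.14 (-2.25 to -2.02, 7804 windows) outside all 3. Islands kept 90.3% of their methylation there and windows outside kept 95.6%, but the levels within the band were 32.5% and 48.4% in the vehicle control and were not matched. The interval of islands did not overlap those of shelves and windows outside, and overlapped that of shores (-3.16 to -2.78). At 90% and over, the 4 classes lay close together, between -0.873 outside and -1.03 in shores. Islands under 10%, 23643 windows, went from 2.12% to 1.81%.

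Among gene sections the same levels were compared. At 10 to 70%, the difference was -2.94 points in promoters (-3.05 to -2.82, 3293 windows), -3.18 at intron-exon boundaries, -3.11 in exons and -3.38 in 3' untranslated regions. It was -2.58 in introns, -2.22 between 1 and 5 kb upstream and -2.26 in intergenic windows. The 41 windows of 5' untranslated regions differed by -1.88 points, with an interval of -2.74 to -1.02. The intervals of introns, upstream and intergenic windows did not overlap that of promoters. Levels within the band were not matched, at 34.4% for promoters in the vehicle control and 45.0, 43.9 and 46.1% for those 3 sections. Section and island class were partly the same windows. Within islands, promoter windows (-2.99) and intergenic windows (-3.22) were close, and outside islands, shores and shelves promoter windows differed by -3.07 and intergenic windows by -1.89. The latter had 41.6% and 49.5% in the vehicle control, so section and level cannot be told apart there.

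**Figure D1:**
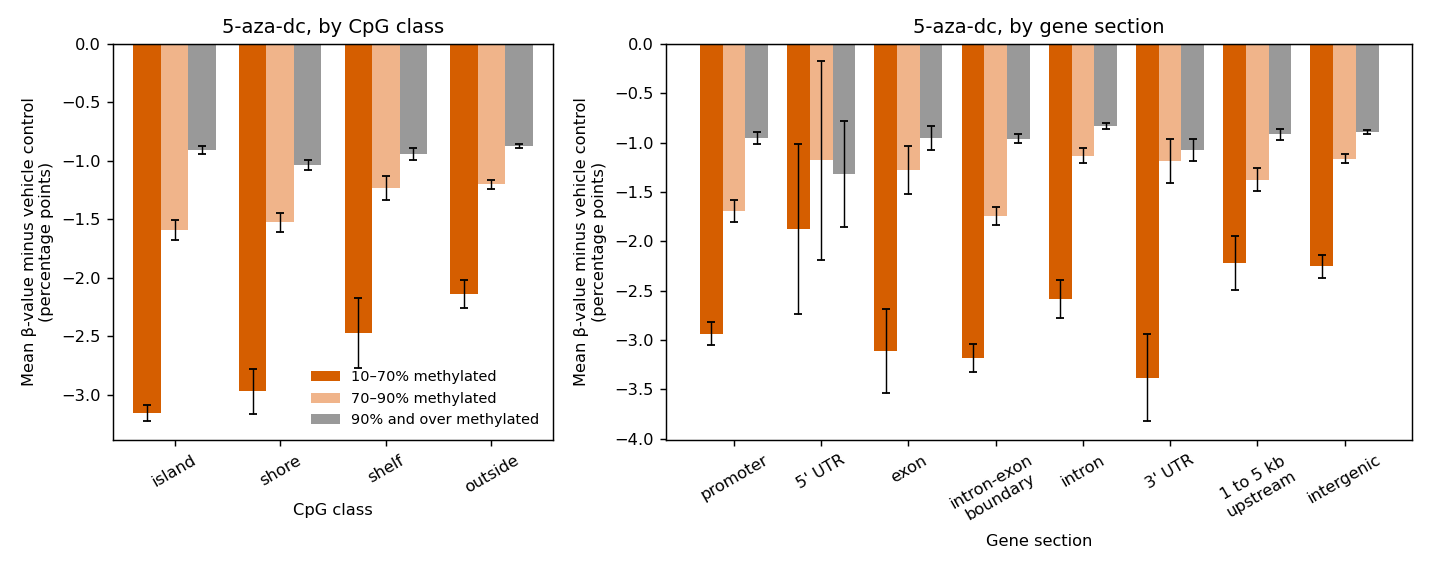
Mean difference in β-value between 5-aza-dc and the vehicle control (percentage points) by CpG class (left) and gene section (right), at 3 levels of methylation, with 95% counting intervals. At 10 to 70% the bars run from -2.14 points outside islands to -3.15 in islands, while at 90% and over those of the CpG classes lie between -0.873 and -1.03.

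In 10717 start windows that hold a whole RefSeq promoter, the difference at intermediate levels was compared by the CpG count of the promoter. At 10 to 70%, windows with 16 or more CpG in 300 bases differed by -3.62 points (-3.77 to -3.47, 684 windows) and kept 86.9% of their methylation. Those with 6 to 15 CpG differed by -3.92 points and kept 89.5%, and those with 0 to 5 CpG by -2.16 points (-3.12 to -1.20, 98 windows) and kept 94.8%. The mean level in the vehicle control was 27.6, 37.3 and 41.8% in these 3 groups and was not matched, so share kept and level cannot be told apart. The 4 promoters printed above all hold more than 16 CpG.

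Start windows of protein-coding genes were mostly unmethylated, and differed little. Of 11530 such windows, 8871 were under 10%, and went from 1.68% to 1.48%. The 1249 windows of 10 to 70% went from 29.4% to 26.5%, a difference of -2.85 points (-2.997 to -2.702), and 50.1% of them were below all other libraries. Of all 17468 windows of that band, 40.8% were below all others. Their mean in the vehicle control was 41.9%, so levels were not matched. At 90% and over the difference was -1.29 points in 763 windows.

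The difference was spread over the chromosomes. Autosomes lay between -0.835 points on chromosome 18 and -1.29 on chromosome 22. In 559 bins of 5 Mb with at least 50 windows, the median was -0.964 points, 550 bins were below the vehicle control, and 550, or 98.4%, had the lowest mean of the 5 libraries in the 5-aza-dc library. The lowest bin, chromosome 21 from 10 to 15 Mb, went from 85.9% to 83.3%, or -2.57 points (-3.07 to -2.06, 176 windows), with the other chemicals at 86.0 to 86.4%. Chromosome 4 from 165 to 170 Mb differed by -2.12 points and chromosome 7 from 55 to 60 Mb by -2.01. All 3 bins were below every other library. At the other end, chromosome 13 from 90 to 95 Mb went from 79.3% to 80.3%, which was 0.978 points higher (0.506 to 1.45), and the other chemicals had 80.3 to 80.6% there. Chromosome 18 from 40 to 45 Mb was 0.420 points higher and chromosome 3 from 75 to 80 Mb 0.0980 higher, both with intervals that include 0.

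**Figure D2:**
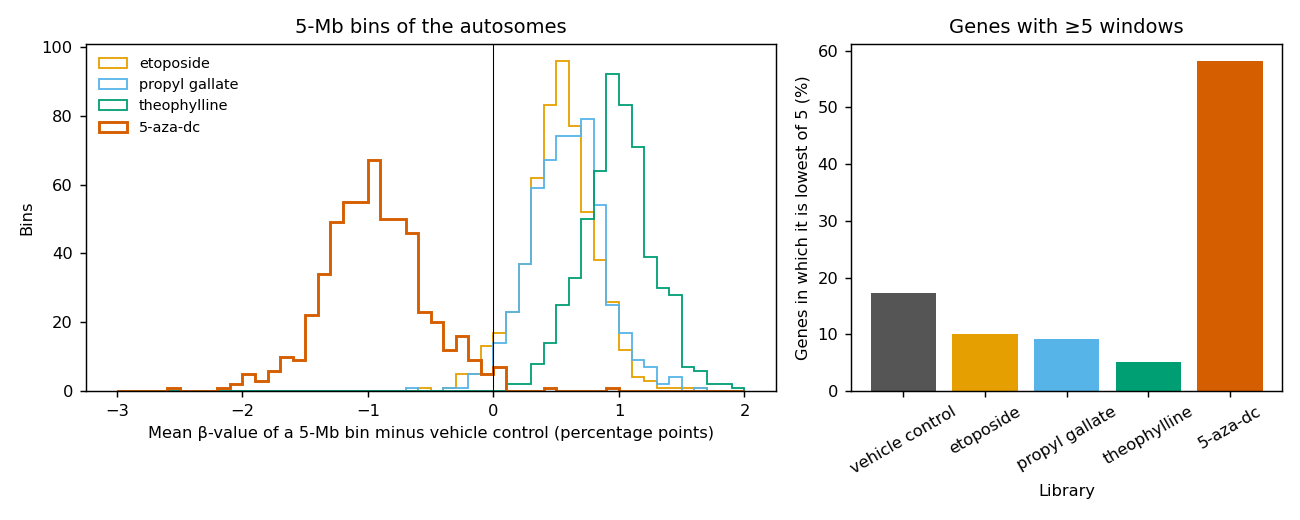
Left, number of 5-Mb bins of the autosomes by mean difference in β-value from the vehicle control (percentage points), for the 4 chemicals; right, share of genes with at least 5 windows in which each library had the lowest mean of 5. The 5-aza-dc bins centre on -0.964 points, and its library is the lowest in 58.2% of genes.

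Single windows with large differences were few. The two-sided exact test of Fisher on the calls of a window, adjusted by Benjamini-Hochberg over all windows, compares 2 libraries and not 2 conditions. Requiring 25 points or more at an adjusted p below 0.01 left 891 windows (0.309%), of which 677 (0.235%) were lower after 5-aza-dc and 214 (0.0742%) were higher. The lower windows went from a median β-value of 90.8% to one of 53.7%. Of them, 91.6% lay below all 4 other libraries, beside 35.1% of all windows. With every count of calls divided by 4, to allow for calls that are not independent, 49 windows were called lower and 6 higher. The median depth of the lower windows was 47 calls in the 5-aza-dc library, against 398 over all windows. Of them, 70.9% lay outside islands, shores and shelves and 11.8% in islands, against 65.4% and 17.3% of all windows. In 41.7% of the lower windows the vehicle control was the highest of the 4 other libraries, and 269 of the 677 were at least 25 points below the nearest of the 4. Of the 214 higher windows, 131 lay above all others, as did 12.4% of all windows. Of the 214, 13 were at least 25 points above the nearest, and in 83.2% the vehicle control was the lowest of the 4. Both kinds were chosen by their distance from the vehicle control. Its being the outermost of the 4, and 5-aza-dc lying outside all 4, are therefore favoured by the choice.

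Among windows with at least 100 calls in every library, 89 were called lower and 23 higher, and 79 and 19 of them lay outside the range of the other libraries. The choice favours this too, and of all 233771 such windows 36.8% lay below and 11.7% above all others. The largest difference was at chr6:166343001-166344000, an island shore next to ENSG00000286760, with 61.7% in the vehicle control, 57.6, 41.4 and 62.4% with etoposide, propyl gallate and theophylline, and 12.6% with 5-aza-dc. It was -49.1 points (-53.6 to -43.6, adjusted p = 2.43e-46 by the exact test), and the 5-aza-dc value was well under the lowest of the others. An island at chr6:3053001-3054000, upstream of ENSG00000229282, had 50.9, 32.7, 23.6, 41.2 and 2.24% in the same order. The other libraries were themselves far apart there. At an intron-exon boundary of SSUH2, chr3:8623001-8624000, values were 43.0, 34.6, 43.3, 43.7 and 1.198%, the last from 276 calls, with the other 4 libraries close together. An intron of ZMIZ1, a coregulator of the PIAS family, had 59.95, 59.4, 58.7, 63.9 and 24.1% at chr10:79114001-79115000, and here too the other 4 were close together. An intron of CTIF, a translation initiation factor of the nuclear cap-binding complex, had 59.2, 51.3, 52.1, 53.7 and 23.4% at chr18:48545001-48546000. The pseudogene ADGRE4P had 86.9, 82.6, 83.3, 86.1 and 46.8% in an intron at chr19:6987001-6988000. In these 4 windows, 5-aza-dc differed from each other library by more than those differed among themselves.

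In other windows the libraries were less uniform. An island in SMOX, the spermine oxidase gene, had 58.3, 67.3, 66.9, 74.4 and 19.01% at chr20:4148001-4149000. An intronic island of MMP17, a membrane-type matrix metalloproteinase, had 82.0, 56.3, 42.3, 77.1 and 36.4% at chr12:131831001-131832000. The difference was -45.6 points, and the propyl gallate value was nearly as low. ARAP3, PHAF1, the island near TP73-AS3 and an island on chromosome 8 near ENSG00000229625 complete the 12, with differences between -34.8 and -45.5 points. The last had 45.5% in the vehicle control, 3.49% with etoposide and 0 methylated of 194 calls with 5-aza-dc, with an upper Wilson limit of 1.94%. Of the higher windows, an island at chr19:7944001-7945000 next to ENSG00000286138 had 55.9, 46.4, 63.7, 65.7 and 96.7%, and was the one well above all others. In an intron of the pseudogene HMGB1P1 the values were 65.2, 91.7, 78.7, 93.5 and 97.3%, and in LRRC27 53.8, 76.5, 77.8, 74.3 and 85.9%. In both, the vehicle control was the lowest library and well under all 4 chemicals.

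At gene starts, 8 autosomal windows with at least 50 calls were named as those with the largest negative differences. RAPGEF1 had 94.2% in the vehicle control, 100% with etoposide, 98.3% with propyl gallate, 98.1% with theophylline and 27.5% with 5-aza-dc at chr9:131740001-131741000, from 137, 70, 108, 91 and 246 calls. The difference was -66.6 points (-72.5 to -58.6, adjusted p = 2.63e-36 by the exact test), and the other 4 libraries were all above 94%. The window before it was almost unmethylated, going from 2.84% to 1.90%, and the one after it went from 95.3% to 92.4%, so the start window lies between an unmethylated and a methylated stretch. Whether the reads of the 2 libraries covered the same CpG sites of the window was not tested. PPATP1, a pseudogene of the purine synthesis gene PPAT, had 72.4, 64.4, 63.9, 69.04 and 17.7%. PWRN1, a non-coding transcript of the Prader-Willi region, had 62.4, 63.6, 53.6, 51.3 and 31.3% from 594 to 1512 calls, the deepest of the 8. Its difference was -31.1 points (-34.7 to -27.3), and 5-aza-dc lay well under the nearest library.

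C2CD6, a gene of the sperm flagellum, had 89.5, 90.2, 83.2, 84.3 and 57.6%, and the neighbouring window was also below all others, going from 92.8% to 83.5%. ENSG00000279135 had 85.1, 89.6, 82.3, 68.3 and 52.8%, and ENSG00000225489 had 76.3, 60.8, 84.2, 63.2 and 47.6%. RN7SL791P, one of many copies of the signal recognition particle RNA, had 96.0, 94.9, 97.1, 86.9 and 53.6%. NOMO2 had 49.5, 27.8, 27.5, 30.3 and 19.3%, so the vehicle control stood apart from the other chemicals as well. Both have near-identical copies elsewhere in the genome, and their values are uncertain. Higher start windows were found at ZDHHC4, a palmitoyltransferase gene, with 15.7, 41.3, 43.1, 31.7 and 50.9%, at HMGCLL1 with 63.0, 92.6, 91.3, 80.4 and 96.0%, and at ENSG00000266313 with 31.0, 33.0, 27.2, 53.9 and 62.5%. At ZDHHC4 and HMGCLL1 the vehicle control was the lowest library and 5-aza-dc lay close to the nearest chemical.

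Averaged over the windows of a gene and the 1500 bases upstream of it, most genes had their lowest mean in the 5-aza-dc library. Of 15540 genes with at least 5 windows, 72.9% were lower than in the vehicle control, with a median difference of -0.936 points (-2.11 with calls pooled), and 9050 (58.2%) were below all 4 other libraries. Another 676 (4.35%) were above all 4. The vehicle control was the lowest library in 17.2% of genes and each other chemical in 5.23 to 10.1%. The share below all others was larger with more windows, from 50.3% of genes with 5 to 9 windows to 84.2% of those with at least 40. The median difference was close in both, at -0.901 and -1.004 points, and the middle 50% of genes was narrower in the latter. Overlapping genes share windows.

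Among autosomal genes below all other libraries, the largest negative differences in gene mean were those of BPIFA4P, METRN, LINC02259, IQSEC3-AS1 and ATG9B, and each rested on 6 or 7 windows. BPIFA4P, a pseudogene, had 78.7% in the vehicle control, 69.8% with etoposide, 69.03% with propyl gallate, 78.9% with theophylline and 64.5% with 5-aza-dc. METRN (chr16:715118-719655), which encodes the secreted neurotrophic protein meteorin, had 66.8, 68.2, 59.4, 72.4 and 53.5%, a difference of -13.35 points (-18.8 to -7.89). In both, the other libraries were far apart, and the lowest of them was nearer to 5-aza-dc than to the highest. LINC02259 had 71.3, 75.8, 74.0, 76.0 and 58.4%, IQSEC3-AS1 90.3, 87.7, 88.3, 88.0 and 77.9%, and the autophagy gene ATG9B 58.0, 49.6, 58.1, 55.7 and 45.6%. PSD2 (chr5:139795808-139844466), an exchange factor for ARF6, had the most windows of the named genes, 10, with 72.9, 71.5, 72.7, 71.4 and 61.3%, a difference of -11.6 points (-14.0 to -9.20). The other 4 libraries lay close together at PSD2, and 5-aza-dc was well under them. GLMN, a regulator of cullin ubiquitin ligases, had 78.6, 80.6, 76.4, 79.7 and 67.0%, and NABP2, a single-stranded DNA binding protein of the DNA damage response, 61.3, 54.8, 59.3, 53.4 and 49.4%. PRAP1 and ENSG00000226699 rested on the same 6 windows, with -11.96 points, and ENSG00000286016 and ENSG00000253108 differed by -11.6 and -11.4 points.

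In the other direction, ENSG00000254242 on chromosome 8 had 79.9, 88.2, 91.9, 94.0 and 96.0%, and ALDH1L1-AS1 had 81.2, 87.0, 89.4, 84.1 and 92.0%. LINC02073 had 62.4, 64.3, 62.5, 63.0 and 69.6%. The vehicle control was the lowest library in these 3 and in the other 3 higher genes named by rule, ENSG00000253235, ENSG00000289376 and RDH10-AS1, which were 7.70 to 8.64 points higher. Only at LINC02073 was the vehicle control close to the other chemicals.

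Gene lists were described by members with at least 3 windows, for which the median over all 22822 genes was -0.896 points, with 53.9% below all other libraries and 5.87% above. HOX cluster genes, the homeobox genes that pattern the body axis, had the lowest median, -1.85 points over 36 genes, and 26 were below all others. With calls pooled the order turned, at -1.35 points for HOX genes beside -2.11 for all genes with at least 5 windows. With each window counted once, their 219 windows went from 12.2% in the vehicle control to 10.0% after 5-aza-dc, with the other chemicals at 11.9 to 12.05%. The difference was -2.23 points (-2.65 to -1.81), and 81.8% of the methylation was kept. The HOX windows are low in methylation, a level at which windows kept less throughout. Within 10 to 70%, 73 HOX windows differed by -3.45 points (-4.50 to -2.40) and kept 84.9%, beside -2.63 points and 93.7% for all 17468 windows of that band. The HOX windows were lower within the band, 22.8% in the vehicle control beside 41.9%, and all windows of 10 to 30% kept 86.9%. All 4 clusters were lower, with HOXA keeping 82.6%, HOXB 76.4%, HOXC 80.1% and HOXD 89.3%. HOXB1, at the 3' end of its cluster, had 51.7, 55.2, 56.5, 60.2 and 42.3%, and HOXC10 14.4, 12.7, 12.03, 12.6 and 9.52%, both below all other libraries. HOXD8 had 2.77, 3.34, 3.63, 3.89 and 4.45%, 1.68 points higher.

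Germline genes, whose starts are often methylated outside the germline, had a median of -1.36 points over 24 genes, and 16 were below all others. With the windows that the table assigns to each gene it was -0.800, beside -0.943 for all genes with at least 5 windows. TEX101, a surface protein of germ cells, had 91.3, 84.1, 90.1, 89.6 and 82.3%, and TUBA3C, a testis tubulin, had 89.2, 87.8, 88.2, 88.8 and 81.5%. TUBA3C was the more separate, since its other libraries lay close together. STK31 was 3.35 points higher and within the range of the others. Of 25 germline start windows, 17 were at 70% or more in all 5 libraries, and the 22 at 10% or more differed by a median of -0.471 points, beside -1.38 for all 9073 such start windows. Of the 22, 11 were below all other libraries and 4 above, and over all such start windows 40.6% were below and 9.86% above. The TDRD9 start printed above had 97.2, 97.9, 97.6, 95.6 and 97.2%, that of SLC25A31, a mitochondrial carrier of the germline, had 93.6% with 5-aza-dc and 93.9 to 96.1% in the others, and both were at most slightly below the vehicle control. The start of PIWIL2, a piRNA-binding protein, had 46.7, 51.9, 37.8, 38.2 and 36.1%, and that of TEX14, a protein of germ cell bridges, 29.8, 24.7, 25.3, 21.6 and 19.5%, both below all others. In the other direction, that of BRDT had 81.25, 87.4, 90.6, 88.6 and 91.5%, and was among the 4 above all others. DPPA3, a factor of early embryos and germ cells that also marks pluripotent cells, had 88.9, 85.5, 82.9, 90.9 and 79.1% at its start.

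Imprinted genes, which are expressed from 1 parental allele, had a median of -0.590 points over 28 genes, and 15 were below all others. It was -1.16 with assigned windows and -2.04 with calls pooled, so its place beside all genes turned with the way of averaging. Their 62 windows of 10 to 70% differed by -0.922 points (-1.57 to -0.277) and kept 97.9% of their methylation, beside 93.7% for all windows of that band, and 27.4% of them were below all others beside 40.8%. MKRN3, of the Prader-Willi region, had 91.6, 91.5, 93.3, 92.6 and 88.3%. PEG3, a zinc finger gene expressed from the paternal allele, had 87.6, 84.5, 86.7, 85.2 and 84.5%, its 5-aza-dc and etoposide values nearly equal. NNAT, which encodes neuronatin, was 3.34 points higher as a gene, and its start window had 25.5, 34.7, 38.3, 20.6 and 41.1%, with theophylline lowest and the libraries far apart.

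The enzymes that write, read and erase methylation were examined because 5-aza-dc acts through them. All 8 start windows of the list that were measured were under 10% in every library. DNMT1, the maintenance methyltransferase, had 85.3, 85.0, 84.5, 84.9 and 83.8% over 36 windows, a difference of -1.56 points (-2.25 to -0.870). Its partner UHRF1, which guides it to half-methylated DNA, had 83.0, 84.7, 83.4, 83.2 and 81.6%, and the helicase gene HELLS 81.0, 81.7, 81.4, 81.9 and 79.6%. All 3 were below every other library. Of the de novo enzymes, DNMT3A had 72.0, 72.1, 72.9, 73.1 and 71.5%, and DNMT3B, at 64.6% and 63.9%, was within the range of the others. DNMT3L, their cofactor, and MBD1, a reader, differed by -1.71 and -2.69 points and were below all. Among the erasers, TET1 differed by -1.46 points and TET3 by 1.13, both within the range, while TET2 had 58.4, 59.6, 59.7, 58.2 and 61.2% and was above all. The whole list had a median of -0.746 points over 14 genes, with 7 below all others.

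Genes of nucleoside uptake and metabolism, which carry 5-aza-dc into the cell and activate or degrade it, had a median of 0.288 points over 11 genes. It turned below 0 with 3 other ways of averaging, at -0.0651 with the windows the table assigns to each gene, -0.721 with at least 30 calls and -2.55 with calls pooled. CDA, the cytidine deaminase that degrades the drug, had 87.4, 93.7, 91.4, 88.6 and 82.4% in 4 windows, RRM1 55.7, 54.0, 56.4, 54.9 and 53.2% in 5, and CMPK1 77.2, 77.1, 78.0, 77.3 and 75.2% in 14. These were the 3 members below all other libraries. DCTD, the deoxycytidylate deaminase, had 70.5, 71.9, 70.3, 68.6 and 75.4% and was above all, with an interval of the difference of -0.334 to 9.98. DCK, the kinase that starts its activation, went from 47.7% to 48.4%, and the transporters SLC29A1, SLC29A2, SLC28A1 and SLC28A3 were between 0.288 and 1.61 points higher, all within the range of the others.

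Pluripotency genes had a median of -0.989 points over 18 genes, and 11 were below all others. Among their 16 start windows, 9 were under 10% in all libraries, and of the 7 at 10% or more, 6 were below all other libraries, with a median over the 7 of -4.85 points. The exception, LEFTY2, went from 87.3% to 91.4% and was within the range of the others. Over all 9073 start windows at 10% or more, 40.6% were below all other libraries, and the median was -1.38 points. The start of ZFP42 (chr4:187995001-187996000) had 60.9, 56.3, 44.3, 59.95 and 37.2%, from 508 to 893 calls, a difference of -23.7 points (-28.5 to -18.7). That of LEFTY1, an inhibitor of NODAL signalling, had 45.0, 47.6, 39.6, 39.8 and 30.3%, and that of L1TD1, an RNA-binding protein of pluripotent cells, had 15.98, 15.9, 11.4, 15.1 and 10.3%. These 3 were chosen after their values were seen. LEFTY1 stood clear of the other libraries. At ZFP42 and L1TD1 propyl gallate was the next lowest, and nearer to 5-aza-dc than to the highest library. The outermost start of POU5F1 in the table had 87.9, 84.1, 86.2, 87.3 and 83.2%, and is among the 6 below all others. No whole RefSeq promoter of POU5F1 lay in a measured window, so this value need not be that of its main promoter. The start of NANOG and expression, which defines the pluripotent label, were not analysed here. As a gene, LEFTY1 went from 73.6% to 68.6%, with the others at 72.4 to 73.7%.

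Lineage genes had -0.477 points over 19 genes, with 11 below all others, and tumour suppressor genes known for silencing by methylation had -0.474 points over 20, also with 11. The latter median was 0.0227 with the windows that the table assigns to each gene. Of 17 lineage starts 16 were under 10% in all libraries, as were 16 of 20 tumour suppressor starts, and the exception among lineage genes was MIXL1, a homeobox gene of mesendoderm. It had 17.05, 17.6, 17.4, 17.8 and 8.15% at its start. RASSF1 had 38.8, 40.3, 37.7, 37.8 and 33.8% as a gene. HAND2, at 4.94% and 3.32%, and ISL1, at 2.70% and 1.54%, with an interval of the difference from -3.58 to 1.26, were the lineage genes with the largest negative differences. Genes of the antiviral response and antigen presentation had -1.66 points over 14 genes, with 8 below all others. In that list HLA-F, a non-classical MHC class I gene, had 57.6, 58.3, 60.6, 62.4 and 42.8% over 3 windows, one of which was called. MAVS, the mitochondrial adaptor of RNA sensing, had 67.0, 65.0, 65.1, 65.6 and 62.4%. The p53 response genes had -0.629 points over 16 genes with 7 below all others. Of their 15 start windows 12 were under 10% in all libraries, and the other 3, of SFN, TP53I3 and ZMAT3, were above all others. Over all 9073 start windows at 10% or more, 9.86% were above all others. The start of SFN, a 14-3-3 protein of the cell cycle arrest, had 63.0, 67.3, 64.3, 70.3 and 73.9%, while PLK3 as a gene had 68.1, 68.97, 68.4, 68.5 and 66.0%. Genes that the study discusses from its other experiments had -1.04 points over 8 genes with 4 below all others, 0.255 with the windows the table assigns to them and -2.52 with calls pooled. The receptor gene NOTCH4 had 74.5, 76.9, 76.6, 77.0 and 70.7%, and the AP-1 subunit gene JUND 26.2, 25.3, 27.2, 24.4 and 23.6% with an interval of the difference from -5.27 to 0.164. LIFR was 3.11 points higher, within the range of the others.

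Gene families in tandem clusters did not stand together. Clustered protocadherins, cell adhesion genes that lie side by side along chromosome 5, had a median of -0.634 points over 37 genes, and 30 were below all others. They share windows, and their 128 windows counted once differed by -0.528 points (-0.938 to -0.118). PCDHB8 had 79.2, 75.4, 73.9, 77.5 and 72.1%, and PCDHB3 83.4, 84.8, 85.6, 82.5 and 86.8%, so members of 1 cluster lay on both sides of the other libraries. Chromosome 19 zinc finger genes had -0.988 points over 207 genes with 116 below all others, and their 124 windows of 10 to 70% differed by -3.41 points (-3.96 to -2.86). ZNF628, at 66.5, 65.0, 65.1, 64.1 and 57.9%, and ZNF878, at 59.1, 56.4, 57.9, 61.1 and 50.6%, were well below the others, and ZNF497 was 7.37 points higher, within the range. Keratin genes had -0.964 points over 38 genes with 18 below, olfactory receptor genes -0.361 over 26 with 8 below, and replication-dependent histone genes -0.189 over 9 with 1 below. With assigned windows the last 2 lists gave -0.949 and -1.04 points, beside -0.943 for all genes with at least 5 windows. They then held 119 and 12 genes, so the genes compared were not the same. The olfactory receptor gene OR10H5 had 82.7, 79.0, 76.9, 84.0 and 74.9%, and the histone gene H2BC4 18.98, 19.6, 19.4, 20.8 and 17.1%. KRT17, an epidermal keratin, had 90.7, 93.6, 90.7, 89.2 and 76.6% over 3 windows, one of them called. Reads of such families can be shared between near-identical copies.

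Windows called lower did not form runs. None of the 677 lay in a run of 3 or more within 5 kb of each other, and 3 pairs were found, in CACNG2, in SCARA3 and near ENSG00000234860. The CACNG2 pair, in the gene of a calcium channel subunit that anchors AMPA receptors, went from 86.4% to 28.7% with 62.2, 65.3 and 79.9% in the others, from as few as 10 calls. With a difference of at least 10 points in place of 25, 24 runs of 3 or more were found. The one with most windows was in KCNN3, a calcium-activated potassium channel gene, where 4 windows between chr1:154860001-154869000 had 56.8% in the vehicle control, 55.2, 52.8 and 51.7% with the other chemicals and 40.8% with 5-aza-dc. All 4 windows were below all other libraries. Among 67375 pairs of adjacent windows with at least 100 calls, the next window was also at least 10 points lower in 7.02% of cases with 5-aza-dc, where 3.05% of all windows were that low. With the other chemicals it was so in 2.14 to 3.25% of cases, where 0.695 to 0.971% were. Neighbours shared a difference of that size more often than windows at large in each of the 4, and in 144 pairs with 5-aza-dc against 11 to 21 with the others.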

How the data were processed

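Genomic DNA of 201B7 cells was analysed by RRBS in 5 libraries, 1 per condition. The authors trimmed paired reads of 150 bases at a quality of 20 with Trim Galore 0.5.0 after FastQC 0.11.7, aligned them to hg38 with Bismark 0.20.0 in non-directional mode, used SAMtools 1.9, and summed CpG calls in windows of 1000 bases with methylKit 1.10.0, per the study's methods and the submitters' processing notes. Windows with a coverage under 10 or an extreme coverage were removed and the libraries merged. The DNA extraction kit is named differently in the labels and in the methods, and the restriction enzyme is not given in the sources used here.

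The deposited table holds, for the vehicle control, counts of methylated and unmethylated calls that were not scaled. For the other libraries the authors' coverage scaling multiplied the calls by 1 factor per library and rounded them, so these deposited values were treated as a score and not as counts. Deposited β-values are fractions, each the methylated share of a window's calls, and are printed in percent. Calls before scaling were recovered by dividing by the factor, 1.211 for 5-aza-dc, and scaling them again gave the table's coverage in at least 99.90% of windows. The tables of single libraries hold the same β-values. Deposited calls had been meant for the exact test, which was run on the recovered ones instead.

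Differences are 5-aza-dc minus vehicle control. Means over windows carry analytic binomial intervals, single shares Wilson intervals and window differences Newcombe's score interval, all at 95%. Each window was tested with Fisher's two-sided exact test and Benjamini-Hochberg adjustment over all 288391 windows, and was called at an adjusted p under 0.01 and at least 25 percentage points. An unadjusted p under 0.05 was found in 97133 windows. The code was tested on simulated data in which calls were drawn independently, so the pairing of calls was not simulated. A gene mean takes all windows touching the gene body, as placed in the table, or its 1500 upstream bases. Gene starts are the outermost ones in the table. Python 3.11.15, numpy 2.4.6, pandas 2.3.3, scipy 1.17.1, numba 0.67.0 and matplotlib 3.10.9 were used. The members and gene lists were chosen with earlier results of these data known. Named were autosomal features with 5-aza-dc outside the range of the other 4 libraries. These were the 12 largest negative and 6 largest positive differences among called windows with at least 100 calls in every library, the 8 and 4 among called start windows with at least 50 calls (only 3 of the 4 higher ones existed), and the 12 and 6 among genes with at least 5 windows. In each list the 2 lowest members and the highest one could be named, and all members of the writer and uptake lists, besides the 3 lowest and highest bins and the 6 longest loci. A genome of the build of the table was not used here, so positions are those of the table and promoter sequences those of RefSeq.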

Additional observations from a re-analysis of the deposited data

How the results depend on the processing

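No paired analysis was possible because each condition had 1 library and the labels carry no replicate numbers, and no library could be left out. Of 229 alternative values for 43 results, 155 stayed within the interval of the value reported (for shares of genes or bins a binomial one) or within 1.5 times a count of windows, 68 moved without changing sign and 6 changed sign; the causes were not tested. The mean difference of -1.03 points was -1.04 with at least 100 calls in both libraries, -1.05 with calls before scaling, -2.84 with all calls pooled and -1.72 against the mean of the other 3 chemicals. With calls pooled, the difference at 30 to 50% was -3.53, that of islands at 10 to 70% -3.39, that of promoters at 10 to 70% -3.41, the gene median -2.11 and the HOX median -1.35. Against the mean of the 3 chemicals, which also set the level classes, islands gave -3.43, promoters -3.31 and windows under 2% 0.0608. Islands gave -3.25 with at least 30 calls. With at least 10 windows per gene, the gene median was -0.958 and the HOX median -2.19. The windows called lower and higher numbered 7959 and 2526 at 10 points, 197 and 44 at 40 points, 124 and 34 with at least 100 calls in both libraries, and 49 and 6 with calls divided by 4. At an adjusted p under 0.05, 329 were higher. In bins of 2 Mb, 94.4% were below the vehicle control. Runs of 3 windows numbered 24 at 10 points. The uptake list changed sign to -0.0651 with assigned windows, -2.55 with calls pooled and -0.721 with at least 30 calls, and with assigned windows tumour suppressor genes gave 0.0227 and genes of the study 0.255. The runs at 10 points and the restriction to like shares of calls were chosen after seeing the data. The windows called lower were shallower than the rest.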
